A study of Homo sapiens with 23 samples.

Results

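The binding of 2 phosphorylated replication-linked proteins was compared in one cell cycle fraction of K562, an established chronic myelogenous leukemia line. The proteins were SIRT1 phosphorylated at T530 (pSIRT1) and MCM2 phosphorylated at S139 (pMCM2), each mapped by ChIP-seq in wild-type K562 cells that elutriation had placed in G2. The pSIRT1 list held 45881 regions and the pMCM2 list 82751 regions on chromosomes 1 to 22 and X. Together these are 128632 regions, after that filter and the merging of overlapping regions, beside the 1743298 regions deposited in the 21 lists of the series. A region that shared at least 1 bp with the other list was called joint, and any other region single. Nascent-strand lists of early, middle and late S K562 cells and the pSIRT1 and pMCM2 lists of G1 and of the same 3 S fractions were set beside them. Each list came from 1 library with no replicate, so differences below are between libraries and carry no p-value. Intervals in parentheses are exact binomial (Clopper-Pearson) 95% intervals of a share, which cover counting error only.

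MCM2 is a subunit of the MCM2-7 ring, which is loaded onto chromatin in G1 and forms the core of the replicative helicase once kinases activate it in S phase. The ring travels with the fork and is removed from chromatin as replication ends, so G2 follows the period in which most of it has left. SIRT1 is a NAD-dependent deacetylase of histones and other proteins, and the series title links its phosphorylated form to the restraint of initiation at replication origins. Nascent strands are short newly made DNA that keeps its RNA primer and so resists lambda exonuclease. A nascent-strand site marks where replication began in cells of that fraction, which by G2 is an earlier event.

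The 2 G2 lists differed in form. pSIRT1 regions had a median width of 800 bp (quartiles 400 and 1400 bp) and covered 52.1 Mb, which was 1.72% of the 3035 Mb spanned by the K562 lists. pMCM2 regions had a median of 1200 bp (quartiles 600 and 2000 bp) and covered 132.0 Mb, or 4.35% of the span. The deposited value of a pSIRT1 region is a decimal score of unstated scale, from 24.6 to 23664 with a median of 64.8, and was used for rank only. The value of a pMCM2 region was a whole number taken as reads, from 13 to 16178 with a median of 32. Across regions, the pMCM2 value rose with width (Spearman's rho 0.72, n = 82751), while the pSIRT1 score hardly did (0.057, n = 45881). These are descriptions across regions of one library. The sequencing depth of the libraries is unknown.

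As a check on the cell line, K562 is known to lack CDKN2A on 9p21. Between 21 and 32 Mb of chromosome 9, a window set after the values were seen, the early, middle and late S nascent-strand lists held 3, 2 and 2 sites, which is 1.78, 1.19 and 1.08% of their density on the rest of the chromosome. pMCM2 held 20 regions there, 8.57% of its density elsewhere on chromosome 9. pSIRT1 held 53 regions, 31.5% of its density elsewhere, and their median width was 200 bp. Of these 53, 7 were joint and 1 carried a nascent-strand site, beside 32.5 and 25.8% of the whole pSIRT1 list. Of the 20 pMCM2 regions, 7 were joint and 2 carried a site, beside 17.3 and 52.6% of that list. What the pSIRT1 regions of this window reflect was not tested. No stretch of chromosome 9 outside its centromere was free of regions in all 14 K562 lists for more than 0.358 Mb (30969801 to 31327400).

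Of the pSIRT1 regions, 14895 of 45881 were joint, or 32.5% (32.04 to 32.9). Of the pMCM2 regions, 14287 of 82751 were joint, or 17.3% (17.0 to 17.5). Measured in bases, 27.9% of pSIRT1 sequence lay in pMCM2 regions and 11.02% of pMCM2 sequence lay in pSIRT1 regions. For comparison, the pMCM2 list covered 4.35% of the span and the pSIRT1 list 1.72%. The marks therefore met more often than the covered length of either list alone, and most regions of both were single. When each region was reduced to 200 bp around its middle, the joint shares were 9.03 and 5.01%.

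Joint regions were nearly always pairs. Of the joint pSIRT1 regions, 99.2% met a single pMCM2 region, and the most that any met was 3. Of the joint pMCM2 regions, 95.4% met a single pSIRT1 region, and the most was 6. In the 13404 one-to-one pairs the median pSIRT1 region was 800 bp wide and the median pMCM2 region 1600 bp. The pSIRT1 region lay wholly inside the wider pMCM2 region in 7672 pairs (57.2%) and the reverse held in 1716 (12.8%). Both ends coincided in 1399 pairs and the regions overlapped in part in 2617 (19.5%). The middles of a pair were a median of 300 bp apart, with quartiles of 100 and 700 bp, on a grid of 200 bp that limits this resolution. The typical joint locus was thus a short pSIRT1 region set within a broader pMCM2 region. pMCM2 regions were also the wider ones over the whole lists, with medians of 1200 against 800 bp. Whether the nesting goes beyond this difference in called width was not tested.

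High rank went with overlap of the other list in both lists. The joint pSIRT1 share was 21.3% (20.1 to 22.5) in the lowest-ranked 10% of its list and 68.0% (66.7 to 69.4) in the highest. For pMCM2 it was 6.67% (6.12 to 7.25) in the lowest 10% and 66.9% (65.9 to 68.0) in the highest. The rise was steepest at the top, since the pMCM2 share was still 17.7% in the eighth step of 10% and 30.0% in the ninth. In the top 1% of the pMCM2 list, 808 of 832 regions (97.1%) were joint, and in the top 1% of the pSIRT1 list 386 of 459 (84.1%). Whether these top loci have high signal with any antibody was not tested. The median percentile rank was 66.5 in joint and 43.7 in single pSIRT1 regions, and 84.1 against 44.6 in pMCM2 regions. Joint pMCM2 regions held a median of 70 reads (quartiles 37 and 132) and single ones 30 (22 and 44). Per kb of region the medians were 41.2 and 27.7 reads, so joint regions were denser in reads as well as wider.

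**Figure D1:**
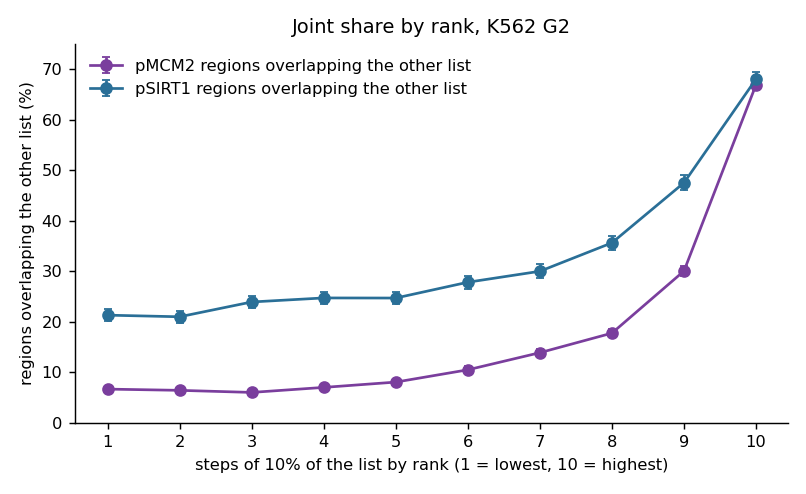
Share of G2 regions that overlap the other antibody's list (%, vertical axis) by steps of 10% of each list in rank order (horizontal axis), with exact 95% intervals. Both lines climb to about the same level in the highest step, 68.0% for pSIRT1 and 66.9% for pMCM2, from 21.3% and 6.67% in the lowest.

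Within pairs the ranks of the marks were only loosely related. Spearman's rho between the 2 percentile ranks was 0.18 over 13404 pairs, which share the genome position and are not independent. Of the 2891 pairs in the highest 10% for pSIRT1, 1462 (50.6%) were also in the highest 10% for pMCM2. These were 30.4% of the 4814 pairs in the highest 10% for pMCM2. Over all 13404 pairs, 4814 were in the highest 10% for pMCM2 and 2891 in that for pSIRT1. The shares of 50.6 and 30.4% were above those of all pairs. The other partners ranked anywhere below the highest 10% of their list.

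Joint regions were the wider ones in both whole lists, by an amount that depended on which regions were kept. Joint pMCM2 regions had a median width of 1800 bp and single ones 1200 bp, while the pSIRT1 medians were 800 and 600 bp. The joint share of pMCM2 was 12.5% in regions of 200 to 400 bp, 11.7% at 600 to 1000 bp, 15.2% at 1200 to 2000 bp and 29.7% above 2000 bp. For pSIRT1 it was 24.4, 40.3, 37.1 and 33.8% in the same classes, so the widest pSIRT1 regions were not those most often joint. In every one of these width classes the joint regions ranked above the single ones of the same list. The smallest gap of medians was 24.2 against 10.9 (pMCM2, 200 to 400 bp) and the largest 62.7 against 30.8 (pMCM2, 600 to 1000 bp). Among the higher-ranked 50% of each list, the ratio of joint to single median width was 2.50 for pSIRT1, against 1.33 in the whole list, and 1.10 for pMCM2, against 1.50. Without the first and last 5 Mb of every chromosome the ratios were 2.0 and 1.50. With regions reduced to their middles the joint class held narrower regions, with ratios of 0.750 and 0.667.

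The sharpest contrast concerned replication start sites used earlier in S phase. A pSIRT1 region with pMCM2 carried a nascent-strand site of at least 1 fraction in 7307 of 14895 cases, or 49.1% (48.3 to 49.9). A pSIRT1 region without pMCM2 did so in 4544 of 30986 cases, or 14.7% (14.3 to 15.1). The share over the whole pSIRT1 list was 25.8%. For pMCM2 no such gap appeared. Joint pMCM2 regions carried a site in 51.7% (50.8 to 52.5) and single ones in 52.8% (52.4 to 53.2), beside 52.6% of the list. Joint pSIRT1 and joint pMCM2 regions overlap each other by definition, so their similar shares of 49.1 and 51.7% describe largely the same loci. Among single regions, those of pSIRT1 held start sites less often than those of pMCM2, at 14.7 against 52.8%.

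The small pMCM2 difference of -1.15 percentage points depended on how it was measured. It became 6.17 points with regions and sites reduced to their middles, and 6.45 points with the higher-ranked 50% of each nascent-strand list. The pSIRT1 difference of 34.4 points was 15.3 and 31.7 points under the same settings. With the first and last 5 Mb of every chromosome left out, the pSIRT1 shares were 50.6 and 15.5% and the pMCM2 shares 53.4 and 53.5%.

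The contrast was present in each S fraction. Early S sites lay in 29.0% of joint and 6.23% of single pSIRT1 regions, against 13.6% of the list. Middle S sites lay in 40.1 and 8.45%, against 18.7% of the list. Late S sites lay in 35.6 and 8.80%, against 17.5% of the list. The 3 site lists covered 5.84, 5.98 and 6.41% of the span. A share of regions that touch a site also grows with the width of regions and sites. Covered length is therefore not the random level of these shares. Whether single pSIRT1 regions met sites more or less often than by position alone was not tested. For pMCM2 the early S shares were 31.2% in joint and 32.1% in single regions, beside 32.0% of the list. The late S shares were 38.1 and 35.8%, beside 36.2% of the list. The middle S shares were 41.9 and 35.9%, beside 37.0% of the list, the widest gap of the 3 fractions.

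**Figure D2:**
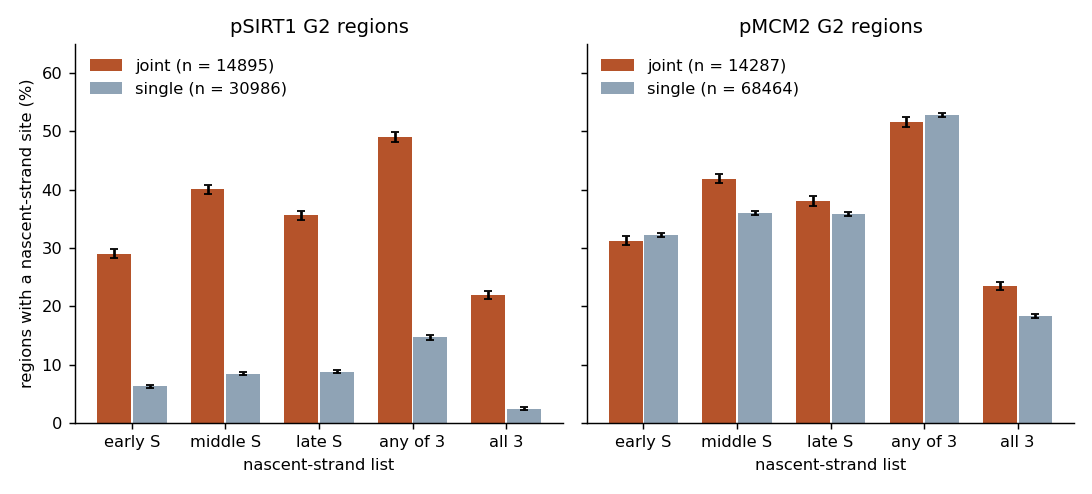
Share of G2 regions (%, vertical axis) that overlap a K562 nascent-strand site of early, middle or late S, of any of the 3 or of all 3 (horizontal axis), for joint and single regions of each antibody, with exact 95% intervals. In the pSIRT1 panel joint regions stand well above single ones (49.1 against 14.7% for any fraction), and in the pMCM2 panel the bars are close (51.7 against 52.8%).

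Regions that met a site of each of the 3 fractions made up a large part of these overlaps. In a wide region these need not be the same site. They were 3255 joint pSIRT1 regions (21.9%) and 759 single ones (2.45%), beside 8.75% of the list. For pMCM2 they were 3352 joint regions (23.5%) and 12551 single ones (18.3%), beside 19.2% of the list. Only early S sites were met by 2.12% of joint and 1.84% of single pSIRT1 regions. For pMCM2 the same shares were 2.31% of joint and 4.94% of single regions. Only middle S sites were met by 8.22% of joint pSIRT1 regions and only late S sites by 4.89%.

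The pSIRT1 contrast was present in each width class. In regions of 200 to 400 bp, 43.8% of joint and 14.3% of single pSIRT1 regions carried a site of any fraction. At 600 to 1000 bp the shares were 56.0 and 19.9%, and at 1200 to 2000 bp 51.6 and 14.2%. Above 2000 bp they were 40.4 and 8.06%, so wide single pSIRT1 regions held the fewest sites. For pMCM2 the joint share was below the single share in each class. The pairs of values were 27.4 and 35.5%, 47.4 and 48.3%, 54.4 and 57.0%, and 58.3 and 66.6%, from the narrowest class to the widest.

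Rank gave the same picture for pSIRT1. Among single pSIRT1 regions the share with a site rose from 13.5% in the lowest 10% of the list to 23.6% in the highest. Among joint regions it stayed between 46.3 and 51.3% in all 10 steps. In the top 1% the joint share was 51.3% of 386 regions and the single share 13.7% of 73. For pMCM2 the share with a site rose with rank in both classes, from 24.7 to 57.3% in joint and from 36.3 to 59.8% in single regions. Joint pMCM2 regions lay below single ones in each of the 10 steps, though in the top 1% they lay above, at 61.0% of 808 against 45.8% of 24. One-to-one pairs in the highest tercile of pSIRT1 rank carried a site in 34.2% when pMCM2 rank was in its lowest tercile (n = 1328). The share was 59.7% when pMCM2 rank was in its highest (n = 1947). The same shares were closer in the other terciles of pSIRT1 rank. They were 42.0 and 55.6% in the middle tercile, and 45.9 and 50.5% in the lowest.

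Single regions lay at a wide range of distances from the other mark. The lists held 27.3 pMCM2 and 15.1 pSIRT1 regions per Mb of the span. Whether the distances differ from those given by these densities alone was not tested. The median distance from a single pSIRT1 region to the nearest pMCM2 region was 11400 bp, with quartiles of 4400 and 29000 bp. From a single pMCM2 region to the nearest pSIRT1 region it was 21200 bp, with quartiles of 8000 and 48600 bp. The pSIRT1 list is the shorter one, so the second distance is longer by list length as well. Within 1 kb lay 5.36% of single pSIRT1 and 2.73% of single pMCM2 regions, and within 10 kb 46.4 and 30.0%. More than 100 kb separated 4.69 and 8.55% of them from the other list. High-ranked single pMCM2 regions were nearer to pSIRT1, with a median of 11200 bp above the 90th percentile. For pSIRT1 the corresponding median was 10800 bp.

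Start sites thinned out with distance from pMCM2 but not with distance from pSIRT1. Single pSIRT1 regions carried a site in 28.9% (26.8 to 31.2) when pMCM2 lay within 1 kb. The share was 20.6% at 1 to 5 kb, 14.1% at 5 to 20 kb, 9.66% at 20 to 100 kb and 4.88% (3.83 to 6.12) beyond 100 kb. The median percentile rank of these regions stayed between 42.8 and 50.6 over the same bins. Median width was 400 bp beyond 100 kb and 600 or 800 bp nearer. Single pMCM2 regions carried a site in 49.1, 50.7, 53.9, 53.6 and 49.6% over the same distances from pSIRT1.

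**Figure D3:**
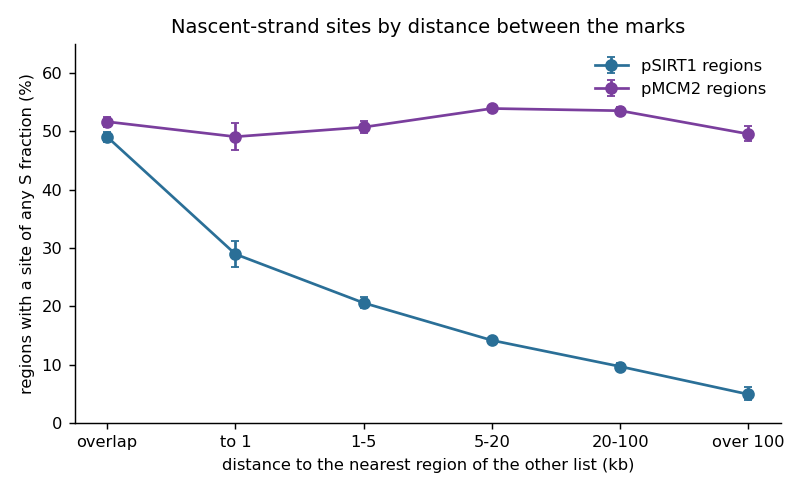
Share of G2 regions with a nascent-strand site of any S fraction (%, vertical axis) by distance to the nearest region of the other antibody in kb (horizontal axis), starting with regions that overlap, with exact 95% intervals. The pSIRT1 line falls from 49.1% at overlap to 4.88% beyond 100 kb, and the pMCM2 line stays between 49.1 and 53.9%.

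Seen from the start sites, pMCM2 was the more frequent G2 mark. It lay at 34.0% of 73296 early S sites, 41.8% of 67803 middle S sites and 34.5% of 81959 late S sites. pSIRT1 lay at 8.04, 11.6 and 9.38% of them. The pMCM2 list is longer and covered more of the span, at 4.35 against 1.72%, and the shares were not adjusted for this. Where a site carried pMCM2, pSIRT1 was present at 17.6, 21.1 and 19.0% of sites of early, middle and late S. Where it did not, pSIRT1 was present at 3.11, 4.86 and 4.29%. Early S sites that were also found in middle and late S numbered 30710, and 50.7% of these carried pMCM2 and 13.4% pSIRT1. Both marks lay at 11.2% of them, pSIRT1 without pMCM2 at 2.24% and neither at 47.1%. Sites with both marks had the most reads in their own lists, at a median percentile of 86.5 in early S, 87.9 for middle and 88.4 for late S, and they were the widest. Site reads rose with site width (Spearman's rho 0.86 in early, 0.86 in middle and 0.81 in late S). The shares at sites were not split by width.

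**Figure D4:**
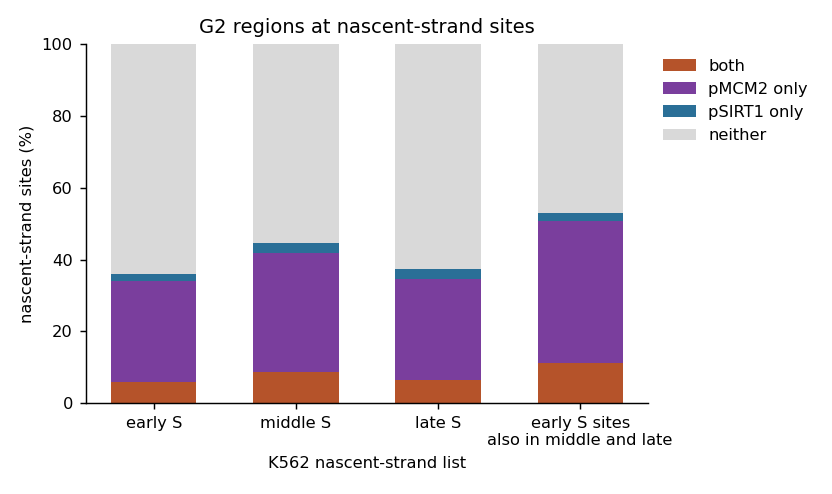
Share of K562 nascent-strand sites (%, vertical axis) that carry both G2 marks, pMCM2 without pSIRT1, pSIRT1 without pMCM2 or neither, for the 3 S fractions and for early S sites also found in the other fractions (horizontal axis). The band with both marks grows from 5.98% of early S sites to 11.2% of the sites found in all fractions, while pSIRT1 without pMCM2 stays between 2.05 and 2.83%.

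The G2 regions were then looked for in earlier phases. The pSIRT1 regions of G2 were mostly present before G2 whether or not they were joint. Of the joint ones, 75.3% were in the pSIRT1 list of G1, 75.7% in that of early S, 47.7% in that of middle S and 88.2% in that of late S. Of the single ones the shares were 60.2, 58.2, 27.5 and 60.2%, beside 65.1, 63.9, 34.1 and 69.3% of the whole G2 list. In none of these 4 lists were 2.76% of joint and 10.5% of single pSIRT1 regions, beside 7.99% of the whole list. These lists differ in length, so shares are compared between classes within one list.

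Earlier pMCM2 followed G2 pMCM2. Joint pSIRT1 regions overlapped the pMCM2 lists of G1, early S, middle S and late S in 35.9, 42.4, 50.01 and 50.4%. Single pSIRT1 regions did so in 11.2, 12.4, 6.78 and 11.2%, beside 19.2, 22.2, 20.8 and 23.9% of the list. No pMCM2 of any of the 4 earlier lists lay at 73.7% of the single pSIRT1 regions and at 23.8% of the joint ones. Over the whole pSIRT1 list the share was 57.5%. Most pSIRT1 regions were thus without called pMCM2 in the other 4 lists, and single ones more often so. The classes are set by G2 pMCM2, so where pMCM2 recurs between phases a gap follows in part from their definition. Both antibodies together marked 46.0% of joint and 8.87% of single pSIRT1 regions in late S, beside 20.9% of the list. Seen from pMCM2, both antibodies together marked 49.6% of joint and 13.5% of single regions in late S, beside 19.7% of the list.

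The pMCM2 regions of G2 were less often found earlier. Joint pMCM2 regions were in the pMCM2 lists of G1, early S, middle S and late S in 37.97, 46.1, 52.4 and 54.1%. Single ones were there in 8.74, 15.6, 22.95 and 19.7%, beside 13.8, 20.9, 28.0 and 25.6% of the list. In none of the 4 lists were 56.4% of single and 20.9% of joint pMCM2 regions, beside 50.2% of the whole list. The G2 pMCM2 list is longer than each of the 4 others, which lowers the share that can have a counterpart.

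A single pMCM2 region in G2 was not always without pSIRT1 in other phases. Late S pSIRT1 lay at 49.9% of single pMCM2 regions (49.5 to 50.2), beside 56.6% of the list. G1 pSIRT1 lay at 20.01%, beside 29.7% of the list, middle S pSIRT1 at 6.09%, beside 13.3%, and early S pSIRT1 at 2.29%, beside 15.0%. The late S pSIRT1 list covered 8.48% of the span and the early S list 0.757%, so these lists differ in reach. Joint pMCM2 regions met the same 4 lists in 89.1% for late S, 75.9% for G1, 47.8% for middle S and 76.2% for early S. The largest ratio between the classes was thus in early S. The classes are set by G2 pSIRT1, which itself often recurs in these lists, so a gap follows in part from their definition.

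**Figure D5:**
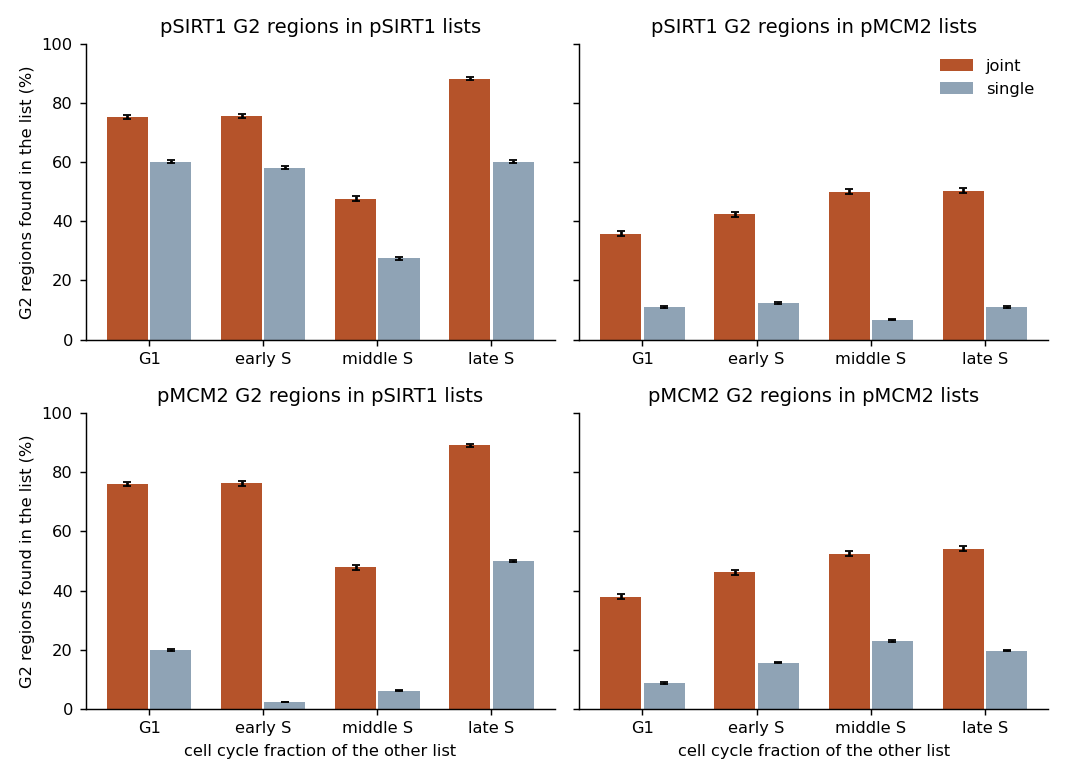
Share of G2 regions (%, vertical axis) found in the pSIRT1 or pMCM2 list of G1, early, middle and late S (horizontal axis), for joint and single regions of each antibody, with exact 95% intervals. Joint regions exceed single ones in all 4 panels, and single pMCM2 regions reach 49.9% in the late S pSIRT1 list but 2.29% in the early S pSIRT1 list.

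Position along the chromosomes differed between the classes. Regions in the first or last 5 Mb of a chromosome made up 17.2% of joint and 19.6% of single pSIRT1 regions, beside 18.8% of the list. For pMCM2 they were 17.2% of joint and 7.45% of single regions, beside 9.12% of the list. In the top 1% by rank they made up 37.9% of pSIRT1 and 27.2% of pMCM2 regions. By chromosome, pSIRT1 was densest on chromosome 19, at 2.93 times its mean density, and pMCM2 on chromosome 1, at 1.42 times. The joint share of pMCM2 was highest on chromosomes 19 (35.9%) and 22 (30.3%) and lowest on chromosome 5 (12.9%). That of pSIRT1 ran from 24.9% on chromosome 22 to 38.3% on chromosome 20. On each of the 23 chromosomes a joint pSIRT1 region was more likely to carry a start site than a single one, with joint shares between 37.5 and 55.8% and single shares between 7.49 and 20.5%.

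The joint regions that ranked highest in both lists are given on hg19 coordinates, with a score for pSIRT1 and reads for pMCM2. The first was at 133022201 to 133034800 of chromosome 2, with a pSIRT1 score of 18453 inside a pMCM2 region of 23600 bp and 7985 reads. Next, on chromosome 1, came 142535401 to 142543000, where the score was 18124 and pMCM2 had 4140 reads. On chromosome 21 the region from 10773801 to 10825600 had a score of 13139 and 4558 pMCM2 reads. These 3 were wide regions, and only that of chromosome 1 met a nascent-strand site, of middle S. The fourth was at 41990601 to 41999200 of chromosome 1, with a pSIRT1 score of 22225 and a pMCM2 partner of 1790 reads, and it carried sites of all 3 fractions. The others were at 115016801 to 115020400 of chromosome 11 (11162 and 1276 reads) and at 91984601 to 91988400 of chromosome 9 (10736 and 1286 reads). The last of the 8 were at 228253601 to 228261800 of chromosome 1 (15914 and 1150 reads) and at 106025001 to 106040800 of chromosome 14 (18992 and 1080 reads). Of these 8, 7 overlapped pSIRT1 and pMCM2 in all 4 earlier phases, and that of chromosome 2 overlapped pSIRT1 in 3 of them.

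Start sites divided these highest regions as they divided joint regions at large. The regions of chromosomes 2, 21, 9 and 14 named above were the 4 highest without a site of any fraction. The 4 highest with sites of all 3 fractions were led by the region that begins at 41990601 of chromosome 1. The next was at 143576401 to 143585200 of chromosome 8, with a score of 9906 and a partner of 731 reads. It was followed by 28772201 to 28776400 of chromosome 19 (7644 and 1164 reads) and 138469801 to 138472000 of chromosome 9 (9513 and 603 reads).

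The highest single pSIRT1 region was also the highest of its list, at 228742601 to 228784200 of chromosome 1 with a score of 23664. It spanned 41600 bp, lay 7400 bp from the nearest pMCM2 region and was in the pSIRT1 lists of all 4 earlier phases and in 2 of the 4 pMCM2 lists. Next came 33237201 to 33241400 of chromosome 16 (score 16553), 49093401 to 49158600 of chromosome 4 (13866), 132639601 to 132646600 of chromosome 12 (13688) and 42354801 to 42399000 of chromosome 10 (13417). None of these 5 carried a nascent-strand site. The highest single pMCM2 region was at 232687401 to 232714400 of chromosome 2, with 1244 reads, sites of all 3 fractions and pSIRT1 at a distance of 13600 bp. The others were at 70602201 to 70603400 (973 reads) and 47037801 to 47055200 (585 reads) of chromosome 8, 19007201 to 19015600 of chromosome 14 (480 reads) and 75687801 to 75699000 of chromosome 3 (474 reads). Of these 5, 3 carried a site, and each was in at least 3 of the 4 earlier pMCM2 lists.

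The single regions farthest from the other mark were short or lay in one cluster. For pSIRT1 they were at 30191601 to 30192000 of chromosome 9, 1001600 bp from pMCM2, at 162490801 to 162491000 of chromosome 4, 963200 bp away, and at 26402601 to 26402800 of chromosome 9, 729800 bp away. Both regions of chromosome 9 lie in the window of few sites described above. For pMCM2 all 3 lay between 61893601 and 61915200 of chromosome 6, from 762400 to 783800 bp from pSIRT1. The widest of them held 342 reads and was in all 4 earlier pMCM2 lists. None of these 6 regions carried a nascent-strand site. Local copy number moves read counts in a cancer line, and its part in these ranks was not tested.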

How the data were processed

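The samples were ChIP-seq and nascent-strand libraries of K562 cells, 1 library per group, grouped by their titles. Peak lists were deposited on hg19. MACS and SICER are named in the submitters' processing notes, with no version. Per the labels, peaks were called against randomly sheared K562 DNA. The aligner and the thresholds are not given in the sources used. Region ends lie on a 200 bp grid. In 12 lists the value deposited for a region is a whole number, taken as a read count from its values and not scaled between libraries. The pSIRT1 lists of G2 and middle S hold a decimal score deposited by the authors, used for rank only. From these, overlapping regions within a list were merged with the highest value kept, and regions on chromosomes 1 to 22 and X were kept. This left out 207 pSIRT1 and 137 pMCM2 regions of G2. Percentile ranks run within a list. Overlap, distance and interval code was checked on simulated data against a direct count. Depth per library is unknown, and only region values are held in the lists. The span is the sum of the last region ends per chromosome.

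Named regions followed a rule: the 8 joint regions with the highest lower rank of both lists, the 5 highest and 3 farthest single regions of each list, and the 4 highest joint regions without sites and with sites of all 3 fractions. The members and lists were chosen with earlier results of these data known. Alternatives covered the overlap rule, list length, width class, extreme regions and chromosomes. The settings with the higher-ranked 50% of nascent-strand lists and without chromosome ends were chosen after seeing the data, as was the window on chromosome 9. Genes and sequences at the regions were not analysed here. Python 3.11.15, numpy 2.4.6, pandas 2.3.3, scipy 1.17.1 and matplotlib 3.10.9 were used.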

Additional observations from a re-analysis of the deposited data

How the results depend on the processing

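Values are given in the order joint share of pSIRT1 and of pMCM2 (%), joint minus single share with a start site for pSIRT1 and for pMCM2 (percentage points), and joint minus single median percentile rank for each, leaving out those within the counting interval of the reported value. With 1 library a side these intervals are narrow. With overlap of at least 50% of the shorter region they were 31.3, 16.7 and, for pMCM2 sites, -0.0316. Within 1 kb they were 36.1, 19.5, 33.4, -2.63, 20.2 and 36.6. In the higher-ranked 50% of each list they were 33.8, 18.3, -3.73 (pMCM2 sites) and 37.9 (pMCM2 rank). With equal list lengths they were 27.2, 25.8, 35.6, -5.004, 20.97 and 38.2. Around region middles they were 9.03, 5.01, 15.3, 6.17, 26.7 and 23.3, so the pMCM2 site difference turned. The cause was not tested. In regions of 200 to 400 bp they were 24.4, 12.5, 29.5, -8.09, 15.4 and 13.3. At 600 to 1000 bp they were 40.3, 11.7, 36.1, 27.5 (pSIRT1 rank) and 31.9 (pMCM2 rank). At 1200 to 2000 bp they were 37.1, 15.2, 37.4, -2.58, 29.7 and 29.5. Above 2000 bp they were 33.8, 29.7, 32.3, -8.26 and 16.9 (pMCM2 rank). Without the 1% highest-ranked regions they were 30.0, 16.2, 32.8 (pSIRT1 sites), 19.7 and 37.5 (ranks). Without chromosomes 16 and 19, the densest by the sum of both lists' relative densities, they were 16.6 (pMCM2 share) and 38.7 (pMCM2 rank). With the higher-ranked 50% of nascent-strand sites the site differences were 31.7 and 6.45. Without the first and last 5 Mb of chromosomes the values were 33.1, 15.7, -0.169 (pMCM2 sites), 20.1 and 37.97 (ranks).

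The ratio of joint to single median width, 1.33 for pSIRT1 and 1.50 for pMCM2, became 2.50 and 1.10 in the higher-ranked 50%, 1.67 and 1.11 with equal lengths and 0.750 and 0.667 around middles. Without chromosome ends it was 2.0 for pSIRT1. For pMCM2 it was 1.33 within 1 kb and without the top 1%. The cause was not tested. Within width classes, from the narrowest to the widest, it was 1.0 in each for pSIRT1 and 1.0, 1.0, 1.14 and 1.21 for pMCM2. The pSIRT1 site difference and both rank differences kept their sign under each alternative run. No paired analysis was possible because each group has 1 library and no result comes from a test.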
